A study of Mus musculus with 18 samples.

Results

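The genes described here are 5 transcription factors that set macrophage identity (Spi1, Maf, Irf8, Irf5 and Runx1) and 4 receptor genes (Csf1r, Csf2ra, Csf3r and Cd14), followed in mouse bone marrow derived macrophages given the synthetic glucocorticoid dexamethasone. Members were taken by symbol from probe sets that the annotation assigned to a single gene, and the brightest probe set stood for each gene. Of the 9 genes, 8 were measured, all 8 passed the filter on dim genes, and they are 8 of 13190 genes tested. No probe set with Csf2ra as its only symbol was found in the annotation used here, and Csf2ra, the ligand-binding chain of the GM-CSF receptor, was not analysed. The members held 14 probe sets, 6 of Runx1, 2 of Irf8 and 1 of each other gene.

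The cells were grown from the marrow of 3 male C57BL/6 mice, 10 weeks old, for 1 week in 10% fetal calf serum with recombinant human CSF1 at 10000 U/ml. They were replated with the same serum and CSF1, so every group, baseline included, had CSF1 in its medium. Arrays were made at baseline and after 1, 2, 4, 10 and 24 h with 100 nM dexamethasone, with 3 arrays in each of the 6 groups and 18 in all. No vehicle control or untreated culture at the later times is described in the labels, so time after replating and dexamethasone cannot be told apart. The labels do not say whether the 3 replicates of a time are the 3 mice, so p-values measure the spread between arrays, which may be in part technical.

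Csf1r encodes the receptor tyrosine kinase for CSF1, the growth factor on which these cells depend. Spi1 encodes PU.1, an ETS-family factor that opens enhancers of myeloid genes, the Csf1r gene among them, and Runx1 binds at many of the same elements with its partner CBFB. Irf8 directs precursors to the monocyte lineage, Irf5 drives inflammatory cytokine genes, and Maf (c-MAF) is linked to the differentiated, non-dividing state of macrophages and to interleukin 10 and scavenger genes. Glucocorticoids act through a nuclear receptor that can activate or repress genes, and they are known to turn macrophages toward an anti-inflammatory, phagocytic state.

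The arrays were alike within groups, with correlations of 0.9952 to 0.9972 between replicates. Of 8 macrophage markers chosen as a check, 7 had a probe set of their own, and all 7 lay above the array median on every array, with summed intensities of 21429 to 22343 at baseline and 23529 to 23789 at 24 h. The 7 did not move together. By the test described below, Mertk (2.10 log2), Itgam (0.55) and Msr1 (0.54) were higher at 24 h and Fcgr1 (-0.31) was lower. That is 4 of 7 called, beside 12.7% of all genes. Adgre1 stood at 0.13, Cd68 at -0.01 and Lyz2 at -0.01. Neutrophil markers were not all low: the sum over 8 was 843 to 1358 at baseline and 1097 to 1275 at 24 h, most of it from S100a8, S100a9, Ngp and Mmp8, while Elane lay between the 16.9th and 49.1st percentile of its array. Dendritic cell markers summed to 73.7 to 78.9 at baseline and 59.8 to 62.5 at 24 h over 5 genes. Erythroid and megakaryocyte markers summed to 2870 to 3411 at baseline and 3020 to 3659 at 24 h, with Pf4 at the 98.5th percentile or above. Progenitor markers summed to 130.5 to 136.3 at baseline and 87.2 to 101.2 at 24 h. Osteoclast markers summed to 443.9 to 588.7 at baseline, lymphocyte markers to 73.9 to 81.9, mast cell and basophil markers to 41.8 to 46.6 and fibroblast markers to 56 to 58.7. Control probe sets at the 3' and 5' ends of the Gapdh transcript, which drift apart in degraded RNA, differed by 0.06 log2 on average at baseline against 0.15 to 0.20 with dexamethasone. Those of the Actb transcript differed by 0.38 at baseline against 0.40 to 0.43 with dexamethasone. How far these shifts enter the changes from baseline below was not tested. At 24 h the Gapdh difference was 0.20, where it was 0.06 at baseline. In log2 from their baseline means, Csf1r then stood at 0.03, Irf8 at -0.02, Irf5 at -0.05 and Spi1 at -0.07. Runx1 stood at -0.18, Cd14 at -0.20, Csf3r at -0.34 and Maf at 0.55.

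Levels below are log2 intensities, and each is a mean over 3 arrays with its SD or a value per array. Changes are log2 differences with limma's standard error (SE), and a gene is said to rise or fall where limma's Benjamini-Hochberg adjusted p over the 13190 genes was under 0.05. In whole-culture RNA, fewer cells of a type and less RNA per cell cannot be told apart. Arrays of a time lay all above or all below those of baseline for 9.8% of all genes at 1 h and 13.1% at 2 h. That share was 22.4% at 4 h, 25.6% at 10 h and 27.9% at 24 h, so such a separation is common.

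At 1 h none of the 8 members changed by limma's test, and 0 had an unadjusted p under 0.05; 0.387% of all genes were called at that time. At 2 h 4 of 8 changed, Maf and Irf5 upward and Irf8 and Runx1 downward, where 2.15% of all genes were called. At 4 h 4 of 8 changed, Maf and Irf5 upward and Spi1 and Runx1 downward, against 7.52% of all genes (4.5% higher and 3.03% lower). At 10 h 2 of 8 had changed, Maf upward and Runx1 downward, against 14.4% of all genes. At 24 h 1 of 8 had changed, Maf upward, which is 1 member beside 12.7% of all genes. The F test over all 5 times called Maf, Runx1, Irf5, Irf8 and Spi1, 5 of 8, against 17.4% of all genes, and did not call Csf1r, Csf3r or Cd14. All these comparisons share the 3 baseline arrays. The members were chosen with earlier results of these data known, so their counts beside the shares of all genes are a description. All members but Csf3r were also bright, at the 82.4th percentile of the array or above. The median change of the 8 members was -0.12 at 4 h, where the median of all genes was 0.01, and -0.06 at 24 h, where it was also 0.01.

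**Figure D1:**
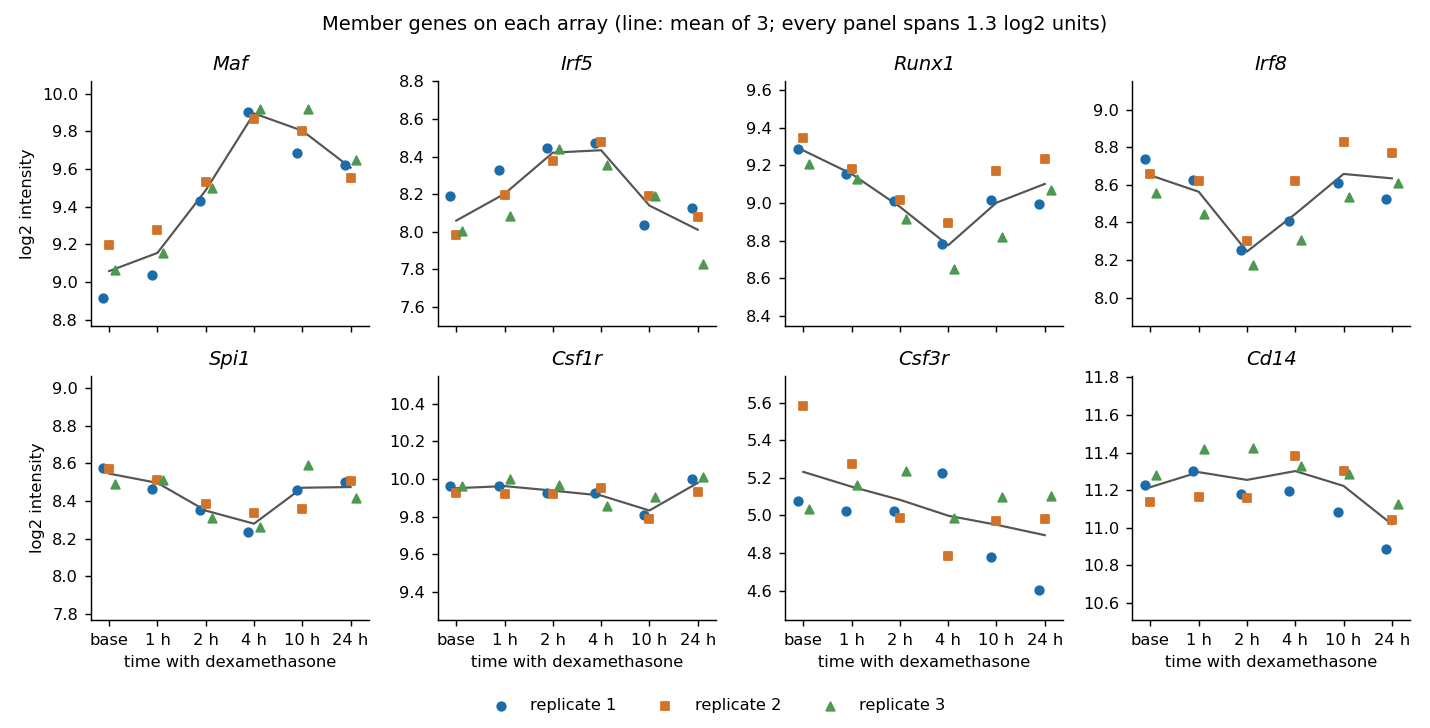
Log2 intensity (vertical axis) of the 8 measured genes on each of the 18 arrays, by time with dexamethasone (horizontal axis); points are arrays, coloured and shaped by replicate number, the line joins the means of 3, and every panel spans 1.3 log2 units. Maf climbs from a mean of 9.06 at baseline to 9.90 at 4 h and stays above baseline, while Runx1 drops from 9.28 to 8.78 and moves part of the way back.

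Maf showed the largest change of the members and was the one called at 24 h in the main fit. The baseline arrays read 8.91, 9.20 and 9.06, those at 2 h 9.43, 9.53 and 9.50, those at 4 h 9.90, 9.87 and 9.92, those at 10 h 9.69, 9.80 and 9.92, and those at 24 h 9.62, 9.55 and 9.65. Every array from 2 h on lay above all 3 baseline arrays, whereas the 1 h arrays, at 9.04, 9.27 and 9.15, overlapped them. Maf rose by 0.43 ± 0.07 (SE, n = 3 arrays per group) at 2 h (adjusted p 0.000284) and by 0.84 ± 0.07 at 4 h (adjusted p 3.89e-09), which is 1.79-fold. It was still 0.75 ± 0.07 above baseline at 10 h (adjusted p 1.89e-08) and 0.55 ± 0.07 at 24 h (adjusted p 2.88e-06), and these 4 calls held in all 29 alternative analyses.

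The rise of Maf came in successive steps. From 1 h to 2 h it rose by 0.33 ± 0.07 (adjusted p 0.0119), the only member called in that step, where 1.12% of all genes were called. From 2 h to 4 h it rose by a further 0.41 ± 0.07 (adjusted p 0.00132), again the only member called, beside 1.9% of all genes. After 4 h the level came down: the fall from 4 h to 24 h was -0.29 ± 0.07 (adjusted p 0.00984), a comparison added after the data had been seen. The 24 h mean was 0.12 ± 0.07 above that of 2 h, which did not pass (adjusted p 0.367). The step from 1 h to 2 h missed the threshold when any of 4 arrays was left out, namely replicate 1 (adjusted p 0.121) or 3 (0.0559) of 1 h or replicate 2 (0.0728) or 3 (0.0511) of 2 h. The fall from 4 h to 24 h did so without 24 h replicate 2 (0.0521).

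Irf5 rose early and was back at its baseline level by 24 h. Its arrays read 8.19, 7.99 and 8.01 at baseline, 8.45, 8.38 and 8.44 at 2 h, 8.47, 8.47 and 8.36 at 4 h, and 8.13, 8.08 and 7.83 at 24 h. The 2 h and 4 h arrays all lay above the 3 baseline arrays, and the 24 h arrays overlapped them. Irf5 rose by 0.36 ± 0.08 at 2 h (adjusted p 0.0147) and by 0.37 ± 0.08 at 4 h (adjusted p 0.00459), or 1.3-fold. At 10 h it stood 0.08 ± 0.08 from baseline (adjusted p 0.615) and at 24 h -0.05 ± 0.08 (adjusted p 0.791). It was the only member called from 4 h to 10 h, with a fall of -0.29 ± 0.08 (adjusted p 0.047), beside 4.18% of all genes; that call lay at the threshold and held in 9 of 29 alternatives, among which leaving out 10 h replicate 1 gave 0.191 and 4 h replicate 1 gave 0.17. Over the longer intervals added after the data had been seen, the fall from 2 h to 24 h was -0.41 ± 0.08 (adjusted p 0.00188) and from 4 h to 24 h -0.42 ± 0.08 (adjusted p 0.00154), and both held in all 29 alternatives. The rise at 2 h missed the threshold without baseline replicate 2 (0.0964), baseline replicate 3 (0.0816), 2 h replicate 1 (0.067) or 2 h replicate 3 (0.0654).

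**Figure D2:**
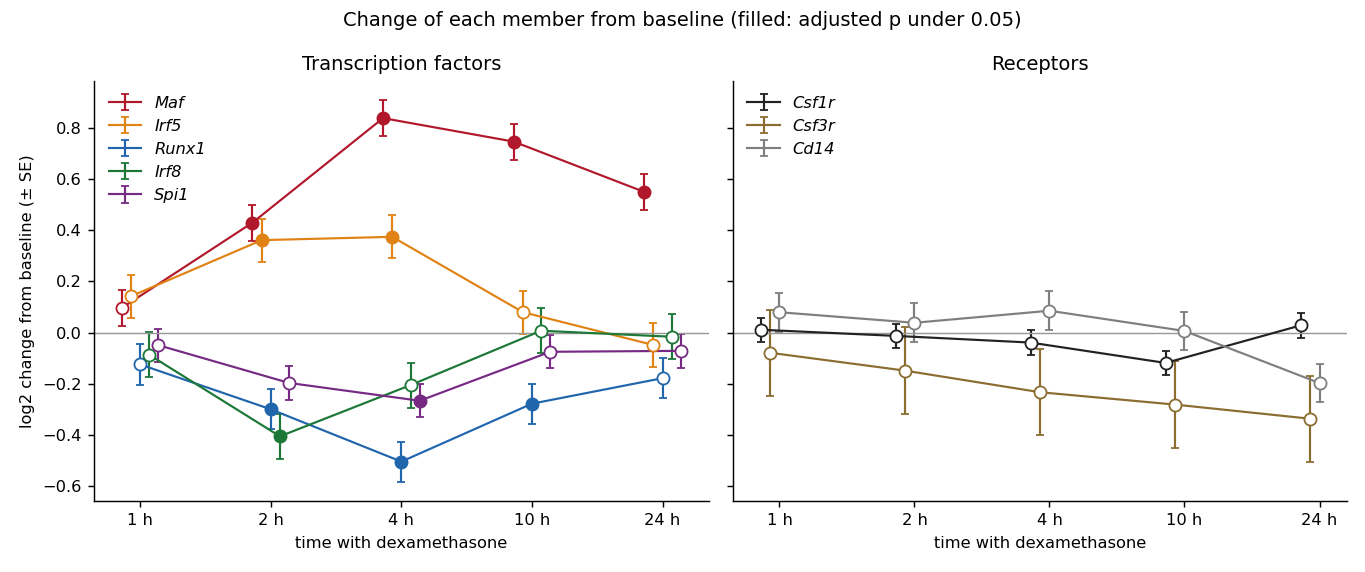
Log2 change from baseline with its SE (vertical axis) at each time with dexamethasone (horizontal axis), for the 5 transcription factors on the left and the 3 receptors on the right; filled points have an adjusted p under 0.05 and each point compares 3 arrays with 3. All filled points belong to transcription factors: Maf stands at 0.84 and Runx1 at -0.50 at 4 h, and Csf1r stays between -0.12 and 0.03.

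Runx1 fell to its lowest at 4 h and then rose, with a 24 h mean below baseline that did not pass in the main fit. Its brightest probe set read 9.29, 9.35 and 9.21 at baseline, 9.01, 9.01 and 8.92 at 2 h, 8.78, 8.89 and 8.65 at 4 h, 9.02, 9.17 and 8.82 at 10 h, and 8.997, 9.24 and 9.07 at 24 h. All arrays at 1, 2, 4 and 10 h lay below all 3 baseline arrays. At 24 h replicate 2 reached into the baseline range, though each 24 h array lay below the baseline array of its own number. With the replicate number as a block in limma's fit, the 24 h change passed (adjusted p 0.0348). Runx1 fell by 0.30 ± 0.08 at 2 h (adjusted p 0.0411), fell by 0.50 ± 0.08 at 4 h (adjusted p 7.03e-05; 0.705 of the baseline level) and was at -0.28 ± 0.08 at 10 h (adjusted p 0.0174) and -0.18 ± 0.08 at 24 h (adjusted p 0.153). From 4 h to 24 h it rose by 0.33 ± 0.08 (adjusted p 0.00898, an added comparison).

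The call for Runx1 at 4 h held in all 29 alternatives, and those around it were less firm. At 2 h it held in 15 of 29, with adjusted p-values up to 0.547, and was lost without baseline replicate 1 (0.111), baseline replicate 2 (0.203), 1 h replicate 1 (0.0548), 1 h replicate 2 (0.0528), 1 h replicate 3 (0.0521), 2 h replicate 1 (0.0803), 2 h replicate 2 (0.0791), 2 h replicate 3 (0.189), 4 h replicate 1 (0.054) and 24 h replicate 3 (0.0521). At 10 h it held in 24 of 29 and was lost without baseline replicate 2 (0.0749) or 10 h replicate 3, where the change was -0.19 and the adjusted p 0.137. The rise from 4 h to 24 h was lost without 4 h replicate 3 (0.0657) or 24 h replicate 2 (0.0713), and also with the probe set of largest variance (0.122).

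The other 5 probe sets of Runx1 gave a check on the brightest. With every probe set tested on its own, 6.23% of 21484 probe sets were called at 4 h, and 3 of the 6 of Runx1 were: 1422864_PM_at at -0.50 ± 0.08, 1422865_PM_at at -0.45 ± 0.10 (adjusted p 0.00716) and 1440878_PM_at at -0.52 ± 0.14 (adjusted p 0.0275). These 3 were the brightest, with baseline means of 9.28, 7.75 and 7.25. The other 3, at baseline means of 5.56, 4.55 and 3.47, were also lower at 4 h, by -0.15 to -0.40, and did not pass. At 10 h the same 3 bright probe sets were called, with 1440878_PM_at at -0.57 ± 0.14 (adjusted p 0.00839) and 1422865_PM_at at the threshold (0.0492). The share of all probe sets called at 10 h is not given here, and that of all genes was 14.4%. At 24 h the 6 stood between -0.25 and 0.19 from their baseline means, with adjusted p-values of 0.175 to 0.866.

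RUNX1 is made from a distal and a proximal promoter that give proteins with different starts. Both are printed here because Runx1 fell by more than any other member, with matches to the core sites of the members' own factors in capitals. They are RefSeq's windows on GRCm38.p6, minus strand, from 250 bases before to 50 after the start, at chr16:92826025-92826324 (distal) and chr16:92697280-92697579 (proximal). The sites searched, on both strands, were GAGGAA for PU.1, TGTGGT for RUNX and GAAANNGAA for IRF factors.
Runx1 distal promoter: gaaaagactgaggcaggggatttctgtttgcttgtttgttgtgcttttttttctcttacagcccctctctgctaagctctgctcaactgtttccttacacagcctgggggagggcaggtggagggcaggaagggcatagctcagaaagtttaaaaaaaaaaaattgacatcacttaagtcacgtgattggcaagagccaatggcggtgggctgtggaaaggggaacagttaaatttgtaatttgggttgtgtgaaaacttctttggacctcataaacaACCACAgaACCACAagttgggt
Runx1 proximal promoter: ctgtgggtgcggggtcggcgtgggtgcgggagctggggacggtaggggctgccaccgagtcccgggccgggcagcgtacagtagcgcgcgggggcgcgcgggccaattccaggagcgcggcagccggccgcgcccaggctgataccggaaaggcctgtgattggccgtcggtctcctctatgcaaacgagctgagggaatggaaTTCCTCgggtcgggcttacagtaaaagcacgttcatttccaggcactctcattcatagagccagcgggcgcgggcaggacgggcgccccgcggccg
The distal window held 2 matches to the RUNX site, as ACCACA on the opposite strand, that begin 29 and 37 bases after the start. The proximal window held 1 match to the PU.1 site, as TTCCTC, that begins at -46. Of 32851 RefSeq windows of this length, 16.8% held the RUNX site, 28.3% the PU.1 site and 8.56% the IRF site, so such matches are common. TGTTCT, the core that each arm of a glucocorticoid receptor site resembles, was in 19% of the windows and in neither of these. The array's probe sets were not matched to transcripts here, so the fall of Runx1 cannot be assigned to either promoter. The Csf3r window held a PU.1 match that begins at -86 and an IRF match at 41. The Csf2ra window held PU.1 matches at -14 and -8. The Irf8 and Irf5 windows in the table held no match to these 4 sites, and no windows of Spi1 and Maf were in the table used here. The promoters of Csf1r and Cd14 were not searched.

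**Figure D3:**
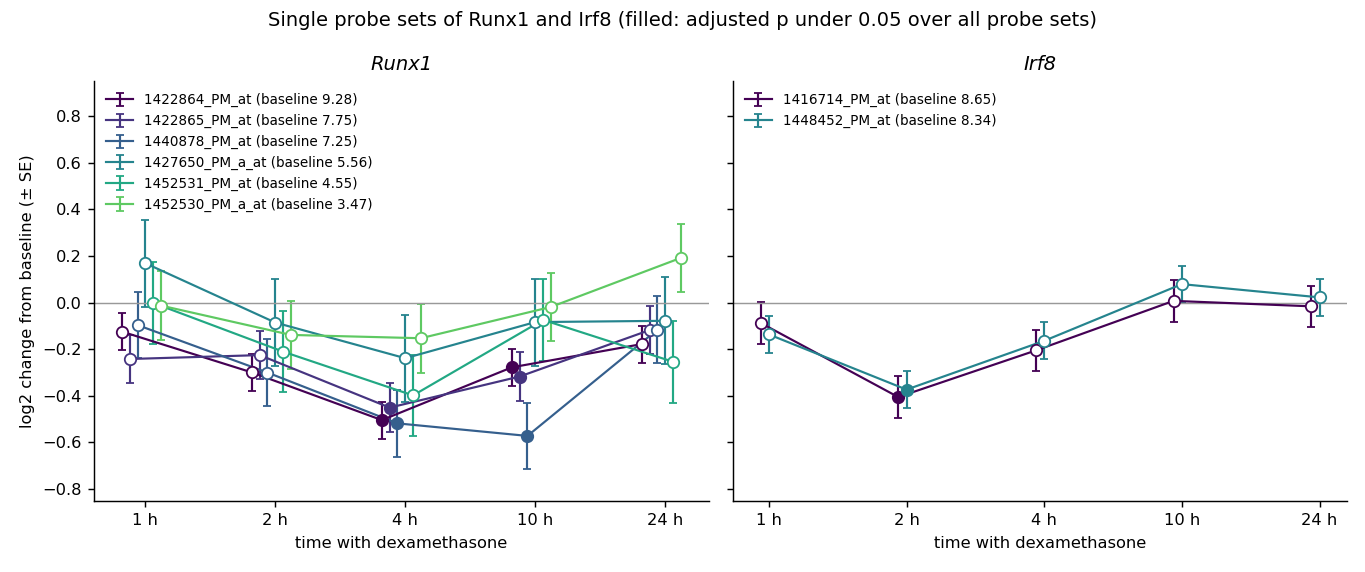
Log2 change from baseline with its SE (vertical axis) by time with dexamethasone (horizontal axis) for the 6 probe sets of Runx1 (left) and the 2 of Irf8 (right); filled points have an adjusted p under 0.05 over all probe sets, n = 3 arrays per group, and the legend gives each baseline mean. The 3 brightest Runx1 probe sets lie between -0.45 and -0.52 at 4 h, and both Irf8 probe sets dip at 2 h and are near 0 at 24 h.

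Irf8 dipped at 2 h and was back at its baseline level by 10 h. Its arrays read 8.74, 8.66 and 8.55 at baseline, 8.26, 8.30 and 8.18 at 2 h, 8.40, 8.62 and 8.31 at 4 h, 8.61, 8.83 and 8.54 at 10 h, and 8.52, 8.77 and 8.61 at 24 h. The 2 h arrays all lay below those of baseline and also below those of 4 h, and the 4, 10 and 24 h arrays overlapped baseline. Irf8 fell by 0.41 ± 0.09 at 2 h (adjusted p 0.00739; 0.755 of the baseline level). It stood at -0.21 ± 0.09 at 4 h (adjusted p 0.197), 0.01 ± 0.09 at 10 h (0.974) and -0.02 ± 0.09 at 24 h (0.945). With the replicate number as a block in limma's fit, the 4 h difference of Irf8 passed (adjusted p 0.0431). The rise from 2 h to 24 h was 0.39 ± 0.09 (adjusted p 0.00457, an added comparison) and held in all 29 alternatives; 2 of 8 members, Irf8 and Irf5, were called over that interval, beside 8.36% of all genes. The fall at 2 h missed the threshold without baseline replicate 1 (0.0579) or 2 h replicate 3 (0.0568).

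The second probe set of Irf8 gave the same picture at 2 h. Tested as features of their own, 1.83% of all probe sets were called at 2 h, and both of Irf8 were, 1416714_PM_at at -0.41 ± 0.09 (adjusted p 0.0106) and 1448452_PM_at at -0.37 ± 0.08 (adjusted p 0.00806). The latter read 8.43, 8.30 and 8.30 at baseline and 8.06, 7.99 and 7.86 at 2 h, with no overlap. At 24 h it stood at 0.02 ± 0.08 from baseline. With probe sets as separate features the brightest probe set of Runx1 missed the threshold at 2 h, with an adjusted p of 0.0529.

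Spi1 made a smaller dip, at its lowest at 4 h. Its arrays read 8.58, 8.57 and 8.49 at baseline, 8.35, 8.39 and 8.31 at 2 h, 8.24, 8.34 and 8.26 at 4 h, 8.46, 8.36 and 8.59 at 10 h, and 8.50, 8.51 and 8.42 at 24 h. The 2 h and 4 h arrays all lay below baseline, and the 10 h and 24 h arrays overlapped it. Spi1 was at -0.20 ± 0.07 at 2 h (adjusted p 0.173) and fell by 0.27 ± 0.07 at 4 h (adjusted p 0.00955; 0.832 of the baseline level). At 24 h the change was -0.07 ± 0.07 (adjusted p 0.553). Without 4 h replicate 1 the call at 4 h was lost, with a change of -0.24 and an adjusted p of 0.0536. Its rise from 4 h to 24 h, 0.19 ± 0.07, had an adjusted p of 0.0709.

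Csf1r was the steadiest of the members. Its arrays read 9.96, 9.92 and 9.97 at baseline, 9.93, 9.95 and 9.86 at 4 h, 9.81, 9.79 and 9.90 at 10 h, and 10.00, 9.93 and 10.01 at 24 h. The 10 h arrays lay below all 3 baseline arrays, and those of every other time overlapped them. At 10 h the arrays of 25.6% of all genes were apart from baseline, upward or downward. The change at 10 h was -0.12 ± 0.05 (adjusted p 0.104), with a 95% interval of -0.22 to -0.02, and at 24 h it was 0.03 ± 0.05 (adjusted p 0.784), with an interval of -0.07 to 0.13. A change of Csf1r RNA beyond 0.22 in either direction thus lies outside the intervals at both times. From 10 h to 24 h Csf1r stood 0.15 ± 0.05 higher (unadjusted p 0.00507, adjusted p 0.127). In that step 0 of 8 members were called by limma, beside 2.16% of all genes. An unadjusted p under 0.05 was seen for 3 of the 8, and the share of all genes at that looser limit is not given here. Csf1r was called in none of the 11 comparisons in any of the 29 alternatives; the lowest adjusted p among them at 10 h was 0.0529.

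Cd14, a co-receptor that hands lipopolysaccharide to the TLR4 complex, had a late difference that did not pass against baseline in the main fit. Its arrays read 11.23, 11.14 and 11.28 at baseline, 11.20, 11.38 and 11.33 at 4 h, and 10.89, 11.04 and 11.13 at 24 h. The 24 h arrays lay below all 3 baseline arrays, and those of 1, 2, 4 and 10 h overlapped them. At 24 h the arrays of 27.9% of all genes were apart from baseline in this way, upward or downward. At 24 h the change was -0.20 ± 0.08 (adjusted p 0.0937), with a 95% interval of -0.35 to -0.04. That change passed (0.04) when the arrays of those groups alone were fitted. It also passed (0.0103) with the replicate number as a block in limma's fit, as did the fall of Cd14 from 2 h to 24 h (0.00296). From 4 h to 24 h it fell by 0.28 ± 0.08 (adjusted p 0.0197, an added comparison), so that 4 of 8 members (Maf, Irf5, Runx1 and Cd14) were called over that interval, beside 7.88% of all genes. That fall missed the threshold without 4 h replicate 2 (0.11), 4 h replicate 3 (0.0639) or 24 h replicate 1 (0.149), and also without an intensity trend (0.101).

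Csf3r, the receptor for G-CSF and a gene of the neutrophil lineage, was dim and its arrays scattered. It lay between the 61.7th and 68.6th percentile of its array, with 5.08, 5.58 and 5.03 at baseline and 4.60, 4.98 and 5.11 at 24 h, which overlap. The change at 24 h was -0.34 ± 0.17 (adjusted p 0.221), and its 95% interval of -0.68 to 0.01 is wide. The group means ran in the order baseline, 1, 2, 4, 10 and 24 h from highest to lowest, but no neighbours in that order were apart in their arrays. The neutrophil markers, which bear on Csf3r as a sign of other cells, were lower than baseline at 24 h in all but Mmp8 among the 8 measured. Ltf (-0.90), Ngp (-1.13) and S100a9 (-1.18) fell and Mmp8 (1.59) rose, 4 of 8 called, with Elane at -0.08, Mpo at -0.30, Camp at -0.23 and S100a8 at -0.09, and their part in the level of Csf3r was not tested.

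The order of the groups differed from gene to gene. For Maf it ran from 4 h through 10, 24, 2 and 1 h to baseline, and of these neighbours only 4 h and 10 h, and 1 h and baseline, overlapped in their arrays. For Runx1 baseline was highest, followed by 1, 24, 10, 2 and 4 h; baseline was apart from 1 h and 2 h from 4 h, and the groups between overlapped. For Irf8 the 2 h group alone was apart from its neighbour. For Irf5 the 4 h and 2 h groups overlapped and stood apart from the rest. For Spi1, Csf1r and Csf3r all neighbouring groups overlapped, and for Cd14 only 24 h, the lowest, was apart.

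Other genes with the most similar profiles to each called member over the 18 arrays were listed by Pearson's r, as a description in which shared time points and shared baseline arrays count. For Maf they were Osbpl11 (r 0.96), which rose by 0.75 ± 0.06 at 4 h, Tmem131l (0.96) and Ypel5 (0.96). For Runx1 they were Nrros (0.89), at -0.33 ± 0.07 at 4 h, Ado (0.89) and Tec (0.89), a kinase of haematopoietic cells. The genes nearest to Irf8, which itself was not called at 4 h in the main fit, included the chemokine genes Ccl7 (0.88), at -0.92 ± 0.19 at 4 h, and Ccl4 (0.83). Rasgef1b (0.83) was the other. Spi1 had B4galt5 (0.87), Sash1 (0.85) and Ptpre (0.83), and Irf5 had Trp53bp1 (0.88), a dim gene with a baseline mean of 3.68, Wfs1 (0.87) and Tusc1 (0.83). Spread between arrays of a group counts in r as well. With group means removed, r was 0.796 to 0.809 for the genes near Runx1 and 0.655 to 0.815 for those near Irf8. It was 0.362 to 0.709 for Spi1, 0.42 to 0.669 for Irf5 and 0.194 to 0.49 for Maf.

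The surroundings of the members were described through 9 lists with 131 genes, of which 112 were tested. The lists were chosen with earlier results of these data known, and their counts are a description. Of the 112 genes 11 rose and 13 fell at 4 h, or 21.4%, and 18 rose and 21 fell at 24 h, or 34.8%, where 7.38% of all genes were higher and 5.34% lower. The median change over the 112 was -0.04 at 4 h and 0.00 at 24 h, where those of all genes were 0.01 and 0.01.

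Among 10 ligands and partner chains of the CSF receptors 0 rose and 4 fell at 24 h, with a median of -0.16; with the mean of all probe sets or the probe set of largest variance 2 were called. Csf2rb, the common signalling chain that pairs with the Csf2ra product, fell by 0.27 ± 0.06 (adjusted p 0.00113), and its paralog Csf2rb2 fell by 0.34 ± 0.07 (0.000659). These 2 genes are near-identical copies, and the array may not separate them. Kit, the stem cell factor receptor and a tyrosine kinase of the same family as the CSF1 receptor, fell by 1.32 ± 0.16 (8.07e-07), and its ligand gene Kitl fell by 0.26 ± 0.07 (0.0132) after standing 0.25 ± 0.07 above baseline at 4 h (0.0207). Csf1 itself, named outside the rule for list genes, was at -0.10 ± 0.17 at 24 h (adjusted p 0.783).

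Of 18 genes of CSF1R signalling 4 rose and 4 fell at 24 h, with a median of -0.06. The 8 calls became 4 with the probe set of largest variance, 5 with the mean of all probe sets and 5 without an intensity trend. Pik3r1, the regulatory subunit of PI 3-kinase, rose by 0.62 ± 0.05 (adjusted p 2.32e-09), Inpp5d, the lipid phosphatase SHIP1 that opposes it, by 0.34 ± 0.07 (0.00116), and Cbl, a ubiquitin ligase that takes down the receptor, by 0.27 ± 0.06 (0.00173). Fyn, a SRC-family kinase, fell by 0.45 ± 0.06 (6.02e-06). Pik3r1 was already 0.66 ± 0.05 above baseline at 2 h (2.08e-09).

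Relatives of the 5 transcription factors included genes that rose and genes that fell. Of 7 other IRF family genes 1 rose and 0 fell at 24 h: Irf2, which competes with IRF1 at its sites, rose by 0.75 ± 0.09 (adjusted p 4.7e-07) and had risen by 0.63 ± 0.09 at 2 h (1.94e-05); without baseline replicate 2 or 4 h replicate 2, or with arrays shifted to one median, the list had 2 calls. Of 7 other genes of the MAF and CNC-BACH families 0 were called at 24 h by limma, 0 had an unadjusted p under 0.05, and the brightest, Nfe2l2, which encodes the oxidative stress factor NRF2, was at 0.02 ± 0.05 (0.854). Of 5 genes of the RUNX family and its partners 1 fell, Runx3 at -0.51 ± 0.15 (0.0228), a call lost without baseline replicate 2, baseline replicate 3, 24 h replicate 2 or 24 h replicate 3, or with the mean of all probe sets; without baseline replicate 1 the list had 2 calls. Cbfb, the partner of RUNX1 and named outside the rule, was at -0.04 ± 0.04 at 4 h (0.734). Of 12 other ETS genes 0 rose and 3 fell at 4 h, with a median of -0.17, and 2 fell at 24 h. Ets1 fell by 1.02 ± 0.17 at 4 h (0.000146) and fell by 0.54 ± 0.17 at 24 h (0.0355), and Etv3 fell by 0.63 ± 0.20 at 24 h (0.0447). The ETS count at 24 h depended on single arrays: leaving out replicate 2 of 24 h gave 0 and replicate 1 of 10 h gave 4, while leaving out replicate 1 or 2 of baseline, replicate 3 of 4 h, or replicate 1 or 3 of 24 h gave 1. It was 0 with the mean of all probe sets or adjustment over the times together, 4 with a filter at the array median, and 1 without a trend, with the probe set of largest variance or with the stepped values kept. Ets2, chosen after its values were seen, had the deepest fall of these at 4 h, -1.17 ± 0.08 (1.24e-10), and stood at -0.24 ± 0.08 at 24 h (0.0506).

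Of 23 other myeloid lineage factors 4 rose and 5 fell at 24 h. Egr2, an immediate-early factor induced by CSF1, fell by 2.34 ± 0.19 (adjusted p 1.76e-09), Egr1 fell by 0.90 ± 0.28 (0.0382) and Lmo2, a bridging factor of blood progenitors, fell by 0.79 ± 0.06 (7.76e-10). Klf4, a zinc finger factor of monocytes, rose by 0.90 ± 0.09 (8.94e-08). Cebpa and Zeb2, both named after their values were seen, moved at 4 h, Cebpa upward by 0.74 ± 0.12 (0.000203) and Zeb2 downward at -0.45 ± 0.05 (3.91e-07), and neither was called at 24 h.

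Of 18 macrophage surface, lysosome and phagocyte oxidase genes 6 rose and 4 fell at 24 h, with a median of 0.05. Marco, a scavenger receptor, rose by 2.01 ± 0.12 (adjusted p 2.39e-12), Mrc1, the mannose receptor, by 0.62 ± 0.08 (2.3e-06) and Itgam, the CD11b integrin chain, by 0.55 ± 0.09 (4.2e-05), while the fractalkine receptor gene Cx3cr1 fell by 0.60 ± 0.14 (0.00326). Of 12 genes of CD14 and LPS recognition 3 rose and 1 fell at 24 h. Ly96, the MD-2 partner of TLR4, rose by 0.38 ± 0.09 (0.00589), Irak3, a brake on Toll-like receptor signalling, by 0.36 ± 0.10 (0.0141), and Cd180 fell by 0.54 ± 0.10 (0.000294). Tlr2 changed sides, from -0.46 ± 0.08 at 4 h (0.000214) to 0.36 ± 0.08 at 24 h (0.00214).

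**Figure D4:**
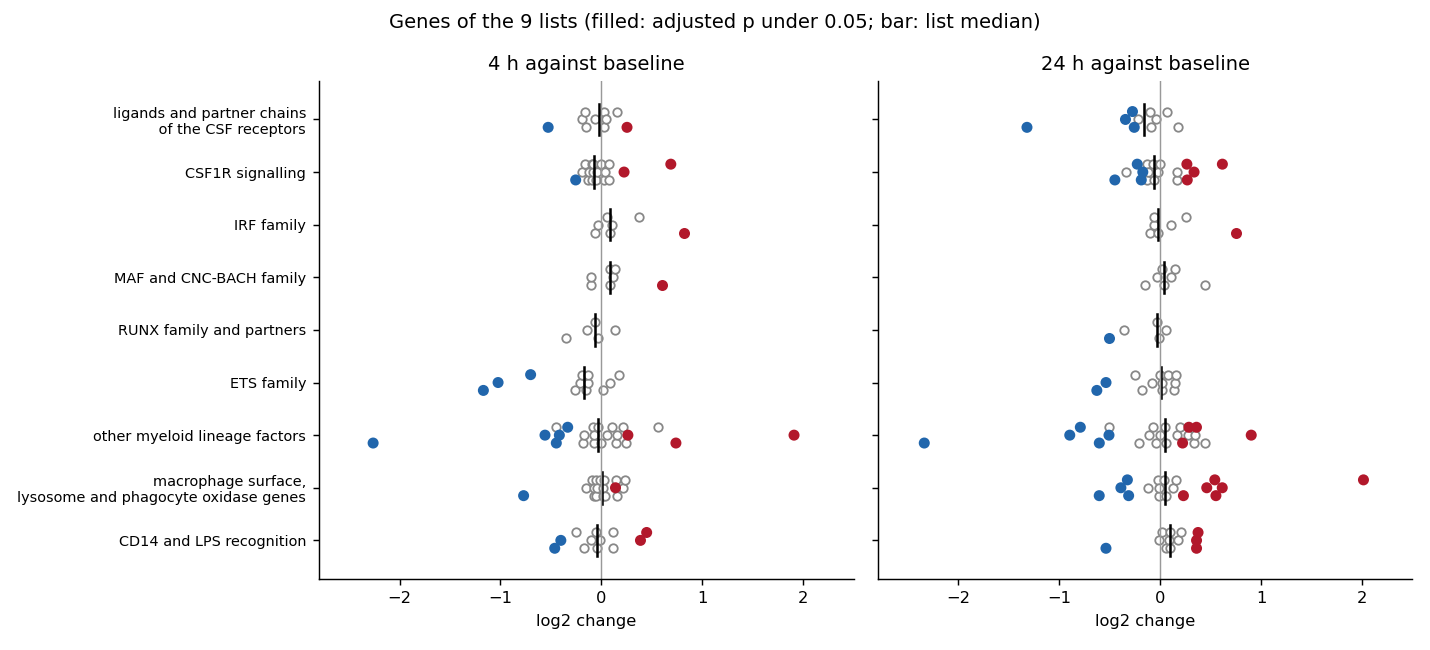
Log2 change from baseline (horizontal axis) at 4 h (left) and 24 h (right) of the 112 tested genes in 9 lists (vertical axis); each point is a gene, filled where its adjusted p was under 0.05, red for higher and blue for lower, and the black bar is the list median. Filled points number 24 at 4 h and 39 at 24 h, and at 24 h the lists of CSF1R signalling, other myeloid factors, macrophage genes and LPS recognition hold both colours, while the CSF receptor, ETS and RUNX lists hold blue alone.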

How the data were processed

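Gene expression was measured in 18 Affymetrix arrays of mouse macrophages, grouped by the labels. The values deposited by the authors are linear intensities, 1 for every probe set on an array. The submitters' processing notes name RMA and affy; versions are not given in the sources used here. RMA makes the arrays' distributions alike, so a change common to most genes would be removed. Precision is limited by 3 arrays per group.

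Of 45141 probe sets, 28898 had 1 gene symbol in GEO's platform annotation and 551 had several. Left out on all arrays were 211 probe sets whose values fall along an even step in baseline replicate 1; none belongs to a member. Log2 intensities were fitted with limma 3.58.1 in R 4.3.3 (lmFit over 18 arrays, 1 mean per group, eBayes with an intensity trend). Genes reached the 40th percentile of the array on at least 3 arrays. Two-sided p-values were adjusted by Benjamini-Hochberg over 13190 genes, separately for every comparison, with a threshold of 0.05.

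Named genes were all members, up to 4 genes of each list called at 24 h with the largest change (the brightest where none was called), and the 3 genes most correlated with each member called by the F test. The members and lists were chosen with earlier results of these data known, and the comparisons of 24 h with 2 h and 4 h were added after the data had been seen. Tested on simulated data for 24 h against baseline, with 50 genes of each size among 13190, the fit found 24% of shifts of 0.3 log2, 58% of 0.5, 94% of 1 and 100% of 2. A smaller share of genes was changed there than the 12.7% called at 24 h in the data. The simulated noise was independent between arrays, so these rates need not hold for the data. Alternatives covered the probe set, the filter, the trend, the arrays in the fit, scaling, the stepped values, the adjustment, the replicate number as a block and each array left out. Promoter windows are RefSeq's, on GRCm38.p6.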

Additional observations from a re-analysis of the deposited data

How the results depend on the processing

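Over 29 alternatives and 11 comparisons, 2552 values of the 8 members were recomputed. Of these 2472 stayed on the same side of the threshold, 59 calls were lost, 21 were gained and 0 turned their sign as a call; 36 uncalled values changed sign. The number of members called at 10 h, 2 in the analysis reported, was 1 with the mean of all probe sets, 1 without an intensity trend and 1 with only the groups compared in the fit, where Runx1 was lost. At 24 h, 1 as reported, it was 2 with only the groups compared. From 1 h to 2 h, 1 as reported, it was 0 without a trend. From 4 h to 10 h, also 1, it was 0 with the mean of all probe sets, the probe set of largest variance, no filter on dim genes, no trend, only the groups compared, arrays shifted to one median, the stepped values kept, and adjustment over the times together. The cause was not tested.

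Leaving out each array in turn gave 1 to 4 members called at 2 h, 1 to 2 at 10 h, 0 to 1 from 1 h to 2 h, 0 to 1 from 4 h to 10 h and 2 to 4 from 4 h to 24 h. Genes called at 24 h in the 9 lists numbered 31 to 44, against 39 as reported.

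Replicate numbers recur in all groups. The deviations of same-numbered arrays from their group means correlated at 0.0236 to 0.29, with a median of 0.1546 and 35 of 45 pairs over 0.1. The 90 pairs of unlike number correlated at -0.2265 to 0.076, with a median of -0.0794. Deviations from a group's mean cancel within the group, so values for unlike numbers are tied to those for like numbers and add no separate evidence. All 18 of 18 arrays correlated best with an array of their own number, so arrays that share a number were linked. The main fit did not take the numbers as pairs, since not every pair exceeded 0.1, and it leaves this link out. With the replicate number as a block, members called were 3 at 24 h (Runx1 at an adjusted p of 0.0348 and Cd14 at 0.0103 in addition to Maf), 2 from 1 h to 2 h (Irf8 in addition, 0.00447), 2 from 2 h to 4 h (Runx1 in addition, 0.0464), 3 from 4 h to 10 h (Irf8, 0.047, and Runx1, 0.014, in addition) and 1 from 10 h to 24 h (Cd14, 0.0248). Irf8 at 4 h also passed with the block (0.0431), as did Cd14 from 2 h to 24 h (0.00296) and Spi1 from 4 h to 24 h (0.0492). Of the lists at 24 h, the block gave 14 called of 23 other myeloid factors (9 as reported), 4 of 12 ETS genes (2), 2 of 7 IRF genes (1) and 1 of 7 MAF and CNC-BACH genes (0).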

Other observations

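Irf8 and Runx1 varied together within the groups. With each group's mean removed, their levels over the 18 arrays correlated at r = 0.881, the highest of the 28 pairs of members; the next pair reached 0.604 and the median pair was at -0.044. In Runx1 replicate 2 was the highest array in 6 of 6 groups and replicate 3 the lowest in 5 of 6, and in Irf8 replicate 2 was the highest in 4 of 6 and replicate 3 the lowest in 5 of 6. Csf1r differed from them, with replicate 3 highest and replicate 2 lowest in 5 of 6 groups each. The arrays share normalization and, within a number, possibly a culture, and the part of these in the correlation was not tested.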
